A study of Homo sapiens with 5 samples.

Results

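The genes of the proteasome were compared between drug-tolerant and untreated cells of BT474, a luminal breast cancer line with amplified HER2. Members were all genes of the deposited table whose symbol was PSM, a letter from A to G and a number, or POMP. This gave 50 of the 18512 genes. One of them, PSMC3IP, shares only the start of its symbol and encodes a factor of homologous recombination. It was kept out of all counts, and was listed at 1.42 FPKM in persister and 5.63 FPKM in parental cells. The other 49 encode core subunits, regulatory subunits, assembly chaperones, activators and an inhibitor.

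Persister cells (3 libraries) were the BT474 cells left when 2 µM lapatinib had been applied for 9 days. Lapatinib blocks the kinase activity of HER2 and EGFR, and it was given in 0.01% DMSO with fresh medium and drug every 3 days. Parental cells (2 libraries) were BT474 cells grown alongside in 0.01% DMSO. The question was how expression differs in the drug-surviving cells. The authors' table holds 1 FPKM value per gene and group, so values carry no SD and no n, and library depth is unknown. FPKM counts sequenced fragments after division by the length of the transcript and the size of the library. A gene is called changed where the authors' q-value was under 0.05. Drug action, growth arrest and traits of surviving cells cannot be told apart, nor can fewer cells of a kind and less RNA per cell in these bulk samples.

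Luminal keratin transcripts were abundant in both groups, as in KRT8 with 565 FPKM in persister and 730 FPKM in parental cells. Of the 7 tested luminal markers, 5 were called lower and 2 higher, also after both groups were rescaled to the same FPKM sum. Of all tested genes, 39% were called lower and 30.9% higher as deposited, and 31.6% and 38.3% after that rescaling. Rescaled values kept the authors' q-values, and only the direction was read anew. GATA3, a luminal transcription factor, had 43.3 FPKM in persister and 14.1 FPKM in parental cells, and the estrogen receptor gene ESR1 had 18.2 FPKM in persister and 12.4 FPKM in parental cells. ERBB2, the amplified gene of this line, was listed at 0 in both groups and gives no check. The 10 leukocyte markers, of interest because white blood cells are rich in immunoproteasomes, summed to 6.10 FPKM in persister and 7.12 FPKM in parental cells, and 7 of them, PTPRC and CD3E included, were under 0.1 FPKM in both. Of the 6 fibroblast markers, 5 were under 0.1 FPKM in both groups, and COL1A1 had 8.73 FPKM in persister and 13.4 FPKM in parental cells. The proliferation marker MKI67 stood at 0.887 FPKM in persister and 12.5 FPKM in parental cells.

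The proteasome is the protease that degrades proteins tagged with ubiquitin. Its barrel-shaped core, the 20S particle, has outer rings of alpha subunits that gate the channel and inner rings of beta subunits, of which PSMB5, PSMB6 and PSMB7 carry the catalytic sites. The 19S regulatory particle caps the barrel: its ring of PSMC ATPases unfolds substrates, and its PSMD subunits bind and remove ubiquitin. Under interferon, PSMB8, PSMB9 and PSMB10 replace the catalytic subunits to form the immunoproteasome. When proteasome activity is short, the transcription factor NFE2L1 raises most subunit genes together through antioxidant response elements.

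Nearly every proteasome gene was lower in persister cells as deposited, though some turned when the groups were rescaled. Of the 49 genes, 47 were covered by the authors' test, and 42 of these were called lower and 1 higher. Over all 13617 tested genes, 39% were called lower and 30.9% higher. High transcripts were called lower more often, so a second background was taken: of tested genes with a mean of at least 10 FPKM, 54.6% were called lower and 21.3% higher, while 41 of the 45 proteasome genes in that range were called lower. The median difference of the 47 genes was -0.49 on the log2(FPKM + 1) scale, persister minus parental, against -0.038 for all tested genes and -0.24 for those of at least 10 FPKM. The falls were moderate. The median ratio of persister to parental FPKM was 0.688, 23 genes were called lower by at least 0.5 on this scale (background 19.4%, and 30.2% of tested genes with a mean of at least 10 FPKM), 0 were called higher by that much (background 11.8%), and 3 stood at or under 0.5 of the parental FPKM. Genes called lower included 15 whose q-value was listed as 0 in the authors' deposited table.

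The scale of the 2 groups bears on the weaker falls. The FPKM values summed to 260213 in persister and 333324 in parental cells, a log2 ratio of -0.36, and the median difference over 10160 genes of at least 1 FPKM in both groups was -0.12. Relative to that median the proteasome genes had a median of -0.38, and 42 of the called genes were lower (38.3% of all tested genes). After rescaling both groups to the same FPKM sum (the equal-sum scale), the median was -0.15, with 37 of the called genes lower and 6 higher. On the equal-sum scale 31.6% of all tested genes were called genes that were lower and 38.3% called genes that were higher. The rescaled values were not tested again. The authors' q-values were kept and only the direction was read anew, so a called gene that turned is no tested rise. The 5 called genes that turned were PSMC2, PSMD4, PSMD3, PSMG2 and PSME1. The sums include 3 untested genes of at least 100 FPKM in parental cells that were listed at 0 in persister cells. Together these held 6309 FPKM in parental cells. With sums over tested genes only, PSMD3 stayed lower (-0.012). Across tested genes the difference also varied with transcript length (Spearman's rho = 0.18 over 13355 genes) and with mean FPKM (rho = -0.29 over 13617), as a description of these libraries. The tested proteasome genes had a median transcript length of 1579 nucleotides, against 3066 for all tested genes, and the part of length and level in their falls was not tested.

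**Figure D1:**
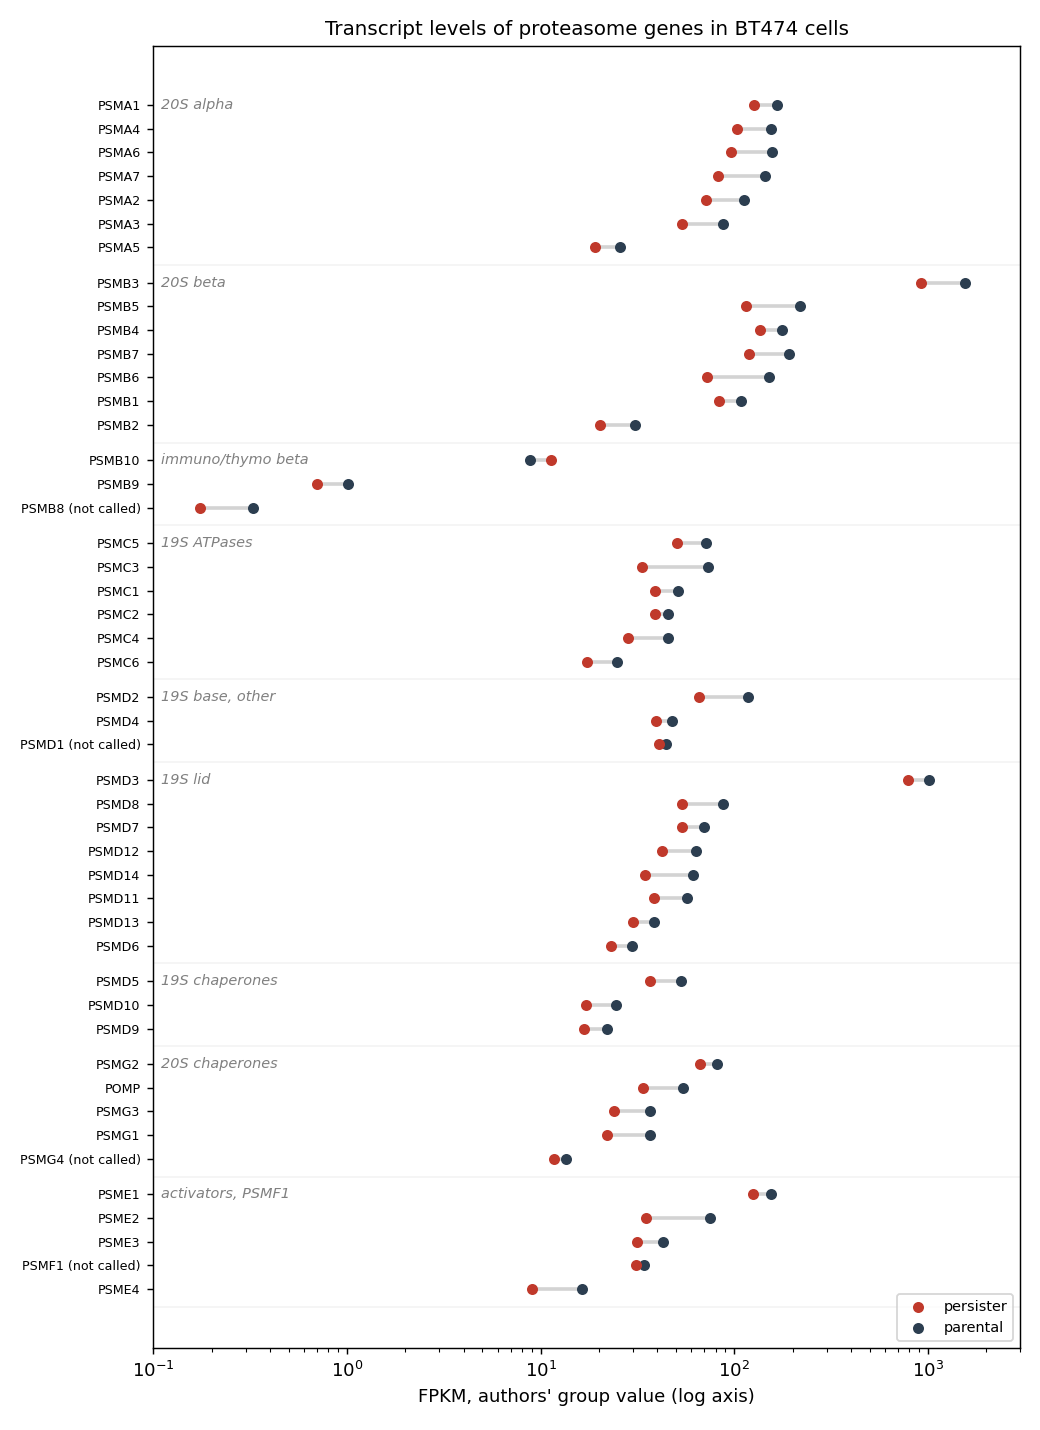
Levels of the 47 tested proteasome genes in persister (red) and parental (dark) BT474 cells, as the authors' FPKM per group on a log axis, grouped by role and ordered by mean level within a role. Red points lie left of dark ones for all genes but PSMB10, although on the equal-sum scale PSMC2, PSMD4, PSMD3, PSMG2 and PSME1 turn upward, as do the uncalled PSMD1, PSMG4 and PSMF1. PSMB3 and PSMD3 stand far to the right of the rest.

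Promoter windows show what some of these genes share in sequence. RefSeq (GRCh38.p14) gave a promoter for 43 of the 49 genes, and none for PSMA7, PSMB1, PSMB6, PSMB7, PSMD4 and PSMG3. The 250 bases before the annotated start were searched on both strands for 3 motifs, which do not overlap in the windows shown. The core of the antioxidant response element, TGACNNNGC, was present in 11 of 43 (25.6%), against 11.03% of 27305 promoters and 13.2% of 4400 promoters of tested genes with a mean of at least 10 FPKM. The core of the interferon-stimulated response element, 2 GAAA tetramers with 2 bases between them, was present in 5 of 43 (11.6%), against 3.07% and 2.23%. The CCAAT box was present in 18 of 43 (41.9%), against 33.04% and 36.6%. The 5 genes shown are the ATPase and the activator that fell furthest, the catalytic subunit that rose, and the most abundant core and lid transcripts. Capitals mark matches to the 3 motifs, and a CCAAT box on the other strand reads ATTGG.
PSMC3 (GRCh38.p14, chr11:47426440-47426689, minus strand): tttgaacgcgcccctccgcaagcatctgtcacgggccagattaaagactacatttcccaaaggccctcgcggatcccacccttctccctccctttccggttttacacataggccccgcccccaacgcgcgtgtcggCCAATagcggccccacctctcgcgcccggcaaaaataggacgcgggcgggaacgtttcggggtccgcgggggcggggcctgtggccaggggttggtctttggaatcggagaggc
PSME2 (GRCh38.p14, chr14:24146611-24146860, minus strand): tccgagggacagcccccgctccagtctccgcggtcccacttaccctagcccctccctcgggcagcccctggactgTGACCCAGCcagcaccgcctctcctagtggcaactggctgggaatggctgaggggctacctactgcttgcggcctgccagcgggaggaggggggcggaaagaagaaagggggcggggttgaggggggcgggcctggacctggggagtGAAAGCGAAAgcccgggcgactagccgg
PSMB10 (GRCh38.p14, chr16:67936851-67937100, minus strand): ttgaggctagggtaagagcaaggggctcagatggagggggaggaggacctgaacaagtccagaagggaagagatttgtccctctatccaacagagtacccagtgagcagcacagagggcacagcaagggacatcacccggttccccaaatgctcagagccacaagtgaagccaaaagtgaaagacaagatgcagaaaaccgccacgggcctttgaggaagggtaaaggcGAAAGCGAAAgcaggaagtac
PSMB3 (GRCh38.p14, chr17:38752491-38752740, plus strand): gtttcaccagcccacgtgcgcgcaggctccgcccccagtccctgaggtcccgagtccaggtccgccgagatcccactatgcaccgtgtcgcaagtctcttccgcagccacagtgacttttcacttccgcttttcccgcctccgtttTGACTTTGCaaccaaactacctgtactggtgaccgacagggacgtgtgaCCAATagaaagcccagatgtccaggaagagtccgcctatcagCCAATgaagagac
PSMD3 (GRCh38.p14, chr17:39980557-39980806, plus strand): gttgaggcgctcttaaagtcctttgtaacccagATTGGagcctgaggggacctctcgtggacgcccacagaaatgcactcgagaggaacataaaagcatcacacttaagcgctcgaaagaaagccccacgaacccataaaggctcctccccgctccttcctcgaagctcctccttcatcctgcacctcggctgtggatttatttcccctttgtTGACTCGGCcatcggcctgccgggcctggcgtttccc

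A match is a description of letters in the window and not of a factor bound there. Positions are counted from the annotated start, with -1 just before it. PSME2 holds both an antioxidant core at -175 and an interferon core at -28. PSMB10 holds an interferon core at -21, and PSMB3 and PSMD3 hold antioxidant cores at -104 and -37. PSMC3 holds only a CCAAT box, at -114. Tested genes with and without the antioxidant core had like medians, -0.52 for 11 genes and -0.48 for 30 genes on the log2(FPKM + 1) scale, which was not tested.

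All 7 tested genes of the 20S alpha ring were called lower (background 39%, and 54.6% of tested genes with a mean of at least 10 FPKM). Their median was -0.64 on the log2(FPKM + 1) scale as deposited, -0.53 relative to the all-gene median and -0.29 on the equal-sum scale. PSMA7 fell furthest, with 82.4 FPKM in persister and 144 FPKM in parental cells, a difference of -0.80. PSMA6 had 95.9 FPKM in persister and 157 FPKM in parental cells, and PSMA3 had 53.6 FPKM in persister and 87.0 FPKM in parental cells. Differences over the ring ranged from -0.80 to -0.39, with an SD of 0.15. PSMA2 had 71.3 FPKM in persister and 112 FPKM in parental cells. PSMA4, a subunit whose tail forms part of the gate, had 104 FPKM in persister and 154 FPKM in parental cells. PSMA1 moved least, at 127 FPKM in persister and 167 FPKM in parental cells, a difference of -0.39. The ring was uneven in level, because PSMA5 was listed at only 19.05 FPKM in persister and 25.8 FPKM in parental cells. The highest alpha transcript was 6.67 times the lowest in persister and 6.46 times in parental cells. PSMA8, a testis form of an alpha subunit, was listed at 0 in both groups.

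All 7 constitutive beta subunits were called lower as well (background 39%, and 54.6% of tested genes with a mean of at least 10 FPKM). Their median was -0.69 as deposited, -0.57 relative to the all-gene median and -0.33 on the equal-sum scale. The 3 catalytic subunits fell by a median of 0.92 on the log2(FPKM + 1) scale. PSMB6, the caspase-like site, had 71.8 FPKM in persister and 152 FPKM in parental cells, a difference of -1.07. PSMB5, the chymotrypsin-like site and the main target of bortezomib, had 115 FPKM in persister and 219 FPKM in parental cells (-0.92). PSMB7, the trypsin-like site, had 119 FPKM in persister and 192 FPKM in parental cells (-0.69). The 4 beta subunits without a catalytic site had a median of -0.47, a gap to the catalytic ones that was not tested. Among them PSMB4 had 136 FPKM in persister and 175 FPKM in parental cells, and PSMB1 had 83.2 FPKM in persister and 109 FPKM in parental cells. PSMB2 was the lowest of the ring, at 20.3 FPKM in persister and 30.5 FPKM in parental cells.

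The immunoproteasome subunits were low throughout and did not move together. PSMB10 was the single proteasome gene called higher as deposited (1 of 6 on the equal-sum scale), with 11.3 FPKM in persister and 8.81 FPKM in parental cells (difference 0.32, q = 0.00313 in the authors' deposited table). PSMB9 fell, with 0.700 FPKM in persister and 1.02 FPKM in parental cells (difference -0.25, q = 0.0211 in the authors' deposited table). PSMB8 was listed at 0.175 FPKM in persister and 0.326 FPKM in parental cells and was not called. PSMB8 and PSMB9 lie on either side of TAP1 in the gene order of the histocompatibility region, and each has a further row listed at 0 in both groups. The sources used here do not say how reads were divided between such rows, and both genes share exons with the other or with PSMB8-AS1, so their low levels are uncertain. PSMB11, the thymus form, was at 0.00526 FPKM in persister and 0.00828 FPKM in parental cells and was not tested.

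Within each catalytic pair the constitutive transcript dominated in both groups. PSMB10 made up 8.68% of the FPKM of PSMB10 and PSMB7 in persister cells and 4.39% in parental cells. PSMB9 made up 0.964% of its pair with PSMB6 in persister and 0.666% in parental cells. PSMB8 made up 0.152% of its pair with PSMB5 in persister and 0.149% in parental cells. Such shares do not depend on the scale of the groups, and with 1 value per group they were not tested.

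**Figure D2:**
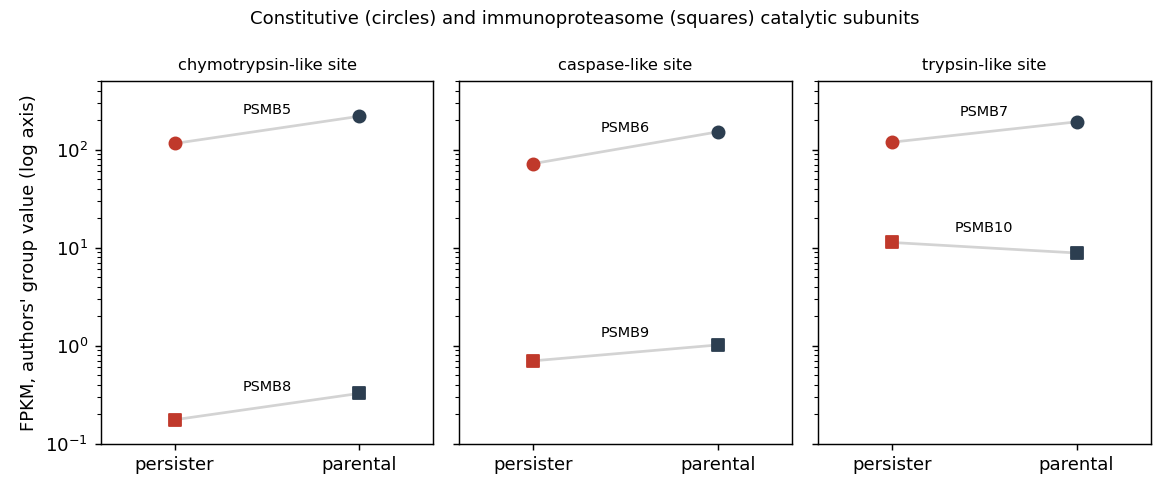
FPKM (log axis) of the constitutive catalytic subunit (circles) and its immunoproteasome counterpart (squares) in persister (red, left) and parental (dark, right) cells, with 1 panel per catalytic site. PSMB10, at 11.3 FPKM in persister and 8.81 FPKM in parental cells, is the only line that is higher at its persister end, and PSMB8 and PSMB9 stay at or near 1 FPKM or below.

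All 6 ATPases of the 19S base were called lower (background 39%, and 54.6% of tested genes with a mean of at least 10 FPKM). Their median was -0.48 (-0.37 relative to the all-gene median), while on the equal-sum scale the median was -0.14 and PSMC2 turned upward (0.14). PSMC3 had the largest fall of any proteasome gene, with 33.4 FPKM in persister and 73.2 FPKM in parental cells, a ratio of 0.456 and a difference of -1.11. PSMC4 had 28.2 FPKM in persister and 45.6 FPKM in parental cells. The ATPases form 1 ring together, yet PSMC2 moved only to 39.2 FPKM in persister against 45.5 FPKM in parental cells. PSMC1 had 39.2 FPKM in persister and 51.2 FPKM in parental cells, a value made less certain by the 13 pseudogenes named after it in GENCODE. The ratio of PSMC3 to PSMC1 was thus 0.852 in persister and 1.43 in parental cells. PSMC5 had 50.8 FPKM in persister and 71.3 FPKM in parental cells. PSMC6, the lowest, had 17.4 FPKM in persister and 24.9 FPKM in parental cells.

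Of the other base subunits, PSMD2, a docking site for ubiquitin-binding shuttles, fell to 65.5 FPKM in persister cells, against 117 FPKM in parental cells (-0.83). PSMD4, a ubiquitin receptor, was called lower at 39.2 FPKM in persister and 47.6 FPKM in parental cells, and was higher by 0.076 on the equal-sum scale. PSMD1, the other large scaffold of the base, was not called at 40.9 FPKM in persister and 44.4 FPKM in parental cells. The median of these 3 genes was -0.27 as deposited, -0.16 relative to the all-gene median and 0.076 on the equal-sum scale.

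All 8 lid subunits were called lower (background 39%, and 54.6% of tested genes with a mean of at least 10 FPKM). Their median was -0.47 (-0.35 relative to the all-gene median), and -0.12 on the equal-sum scale, where PSMD3 turned slightly upward (0.012). With sums over tested genes only, PSMD3 stayed lower (-0.012). PSMD14, the deubiquitinase that cuts ubiquitin chains from substrates, fell furthest, with 34.7 FPKM in persister and 60.9 FPKM in parental cells (-0.79). PSMD8 had 53.6 FPKM in persister and 87.3 FPKM in parental cells. The scaffold subunits PSMD11 and PSMD12 had nearly equal falls. PSMD11 had 38.3 FPKM in persister and 57.1 FPKM in parental cells. PSMD12 had 42.5 FPKM in persister and 63.7 FPKM in parental cells. PSMD7, the partner of PSMD14 in the lid, fell less, with 53.7 FPKM in persister and 70.0 FPKM in parental cells. PSMD13 had 29.9 FPKM in persister and 38.5 FPKM in parental cells, and PSMD6 had 23.1 FPKM in persister and 29.8 FPKM in parental cells.

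**Figure D3:**
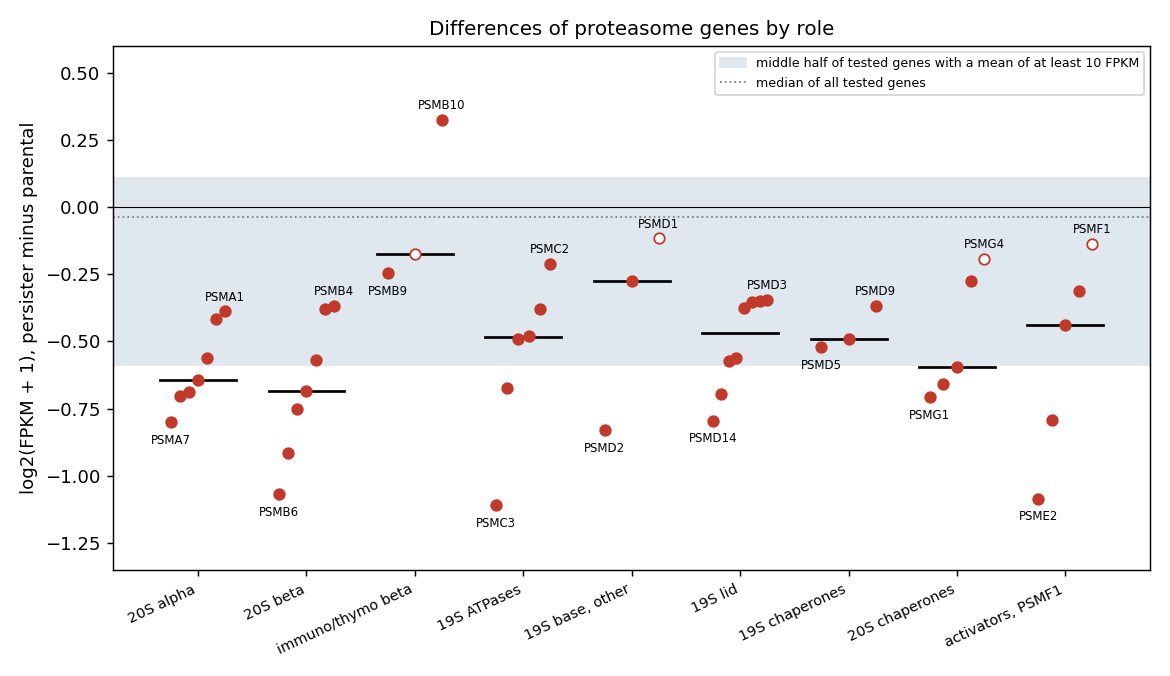
Difference of each tested proteasome gene on the log2(FPKM + 1) scale, persister minus parental, by role. Filled points were called in the authors' deposited table, open ones were not, bars are class medians, the shaded band holds the interquartile range of tested genes with a mean of at least 10 FPKM (-0.59 to 0.11), and the dotted line is the median of all tested genes (-0.038). PSMC3, PSME2 and PSMB6 lie lowest and PSMB10 alone lies above 0, while on the equal-sum scale the median of the other base subunits and the called genes PSMC2, PSMD4, PSMD3, PSMG2 and PSME1 also lie above 0.

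Core transcripts outnumbered regulatory ones per unit of length. Without the outlying PSMB3, the 13 tested constitutive core genes had a median of 83.2 FPKM in persister and 152 FPKM in parental cells. Without PSMD3, the 16 genes of the regulatory particle had a median of 39.2 FPKM in persister and 54.2 FPKM in parental cells. The ratio of these medians was 2.13 in persister and 2.80 in parental cells, which was not tested. All 49 proteasome genes together held 1.502% of the summed FPKM in persister and 1.76% in parental cells, and PSMB3 and PSMD3 made up 43.7% of that share in persister and 43.6% in parental cells.

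PSMB3 and PSMD3 stood apart in level. PSMB3, a beta subunit without a catalytic site, had 918 FPKM in persister and 1548 FPKM in parental cells, a difference of -0.75, and ranked 9 of all genes in persister and 4 in parental cells. That is 11.03 times the median of the other core genes in persister and 10.2 times in parental cells. PSMD3, a scaffold of the lid, had 791 FPKM in persister and 1005 FPKM in parental cells, a difference of -0.34 as deposited that became 0.012 on the equal-sum scale. With sums over tested genes only, the difference was -0.012. The level of PSMD3 was 20.2 times the median of the other regulatory particle genes in persister and 18.6 times in parental cells. In the RefSeq gene order, both genes flank ERBB2, whose amplification defines this line. Between PSMB3 and ERBB2 lie 20 protein-coding genes of the table, and between ERBB2 and PSMD3 lie 8.

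The neighbours of PSMB3 were high too. Of its 5 neighbours on each side, the 8 tested ones had a median of 79.5 FPKM in persister and 86.9 FPKM in parental cells. Around the other 48 proteasome genes the parental medians of tested neighbours reached at most 31.1 FPKM. MLLT6, near PSMB3, had 219 FPKM in persister and 114 FPKM in parental cells, and PIP4K2B had 147 FPKM in persister and 138 FPKM in parental cells. RPL23 was listed at 0 in persister and 5076 FPKM in parental cells and LASP1 at 0 in both. Neither was covered by the authors' test, so neither enters that median, and their listed values are uncertain. Around PSMD3 the picture was mixed, with a median of 19.2 FPKM in persister and 17.7 FPKM in parental cells over 9 tested neighbours. There ORMDL3 had 334 FPKM in persister and 340 FPKM in parental cells and MED24 had 198 FPKM in persister and 182 FPKM in parental cells, beside tissue-restricted genes such as CSF3 near 0.1 FPKM. Of the 8 tested neighbours of PSMB3, 4 were called lower and 2 higher, and of the 9 of PSMD3, 0 were called lower and 2 higher (backgrounds 39% and 30.9%). Tested genes with a mean of at least 10 FPKM had shares of 54.6% and 21.3%. No copy number was measured in these data, and its part in the levels was not tested.

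**Figure D4:**
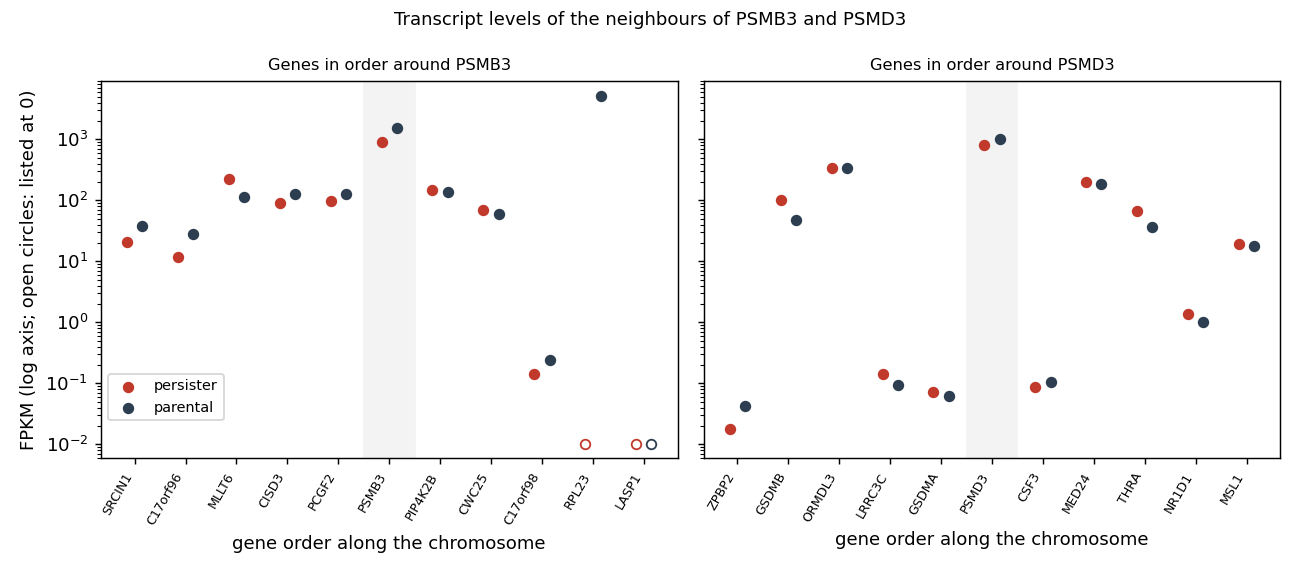
FPKM (log axis) of PSMB3 and PSMD3 (shaded) and their 5 neighbours on each side in RefSeq gene order, with persister in red, left of parental in dark, and open circles at the bottom for genes listed at 0. PSMB3 has 4 tested neighbours of at least 100 FPKM in parental cells (MLLT6, CISD3, PCGF2 and PIP4K2B), and PSMD3 at 1005 FPKM in parental cells has 2 such neighbours, ORMDL3 and MED24. RPL23 was not tested and is listed at 0 in persister cells, so its parental value is uncertain.

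Assembly chaperones of the core were mostly lower, with 4 of 5 called lower (background 39%, and 54.6% of tested genes with a mean of at least 10 FPKM). POMP, which drives maturation of the core, fell to 33.9 FPKM in persister cells, against 54.0 FPKM in parental cells (-0.66). PSMG1, which pairs with PSMG2 to build the alpha ring, had 22.1 FPKM in persister and 36.8 FPKM in parental cells (-0.71). PSMG2 itself was called lower at 66.7 FPKM in persister and 81.0 FPKM in parental cells, but was higher by 0.076 on the equal-sum scale. PSMG3 had 23.9 FPKM in persister and 36.6 FPKM in parental cells, while its partner PSMG4 was not called at 11.8 FPKM in persister and 13.6 FPKM in parental cells. The median of the 5 genes was -0.59 as deposited, -0.48 relative to the all-gene median and -0.25 on the equal-sum scale. The 3 chaperones of the regulatory particle all fell, with a median of -0.49, of -0.38 relative to the all-gene median and of -0.15 on the equal-sum scale. PSMD5 had 36.8 FPKM in persister and 53.2 FPKM in parental cells. PSMD10, also known as the oncoprotein gankyrin, had 17.1 FPKM in persister and 24.5 FPKM in parental cells. PSMD9 had 16.7 FPKM in persister and 21.9 FPKM in parental cells.

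The 4 activators were called lower by unequal amounts (background 39%, and 54.6% of tested genes with a mean of at least 10 FPKM). The median with the inhibitor PSMF1 was -0.44 as deposited, -0.32 relative to the all-gene median and -0.092 on the equal-sum scale, where PSME1 turned upward. PSME1 and PSME2 form the interferon-inducible PA28 cap together, and only 1 gene of the table lies between them. PSME2 fell to 34.8 FPKM in persister cells, against 75.0 FPKM in parental cells (-1.09). PSME1 was called lower at 124 FPKM in persister and 155 FPKM in parental cells (-0.31) and was higher by 0.041 on the equal-sum scale. The ratio of PSME2 to PSME1 was 0.280 in persister and 0.485 in parental cells. PSME2 has 2 named pseudogenes and overlaps RNF31 on the other strand, and the libraries did not keep strand. PSME3, the nuclear PA28 cap, had 31.3 FPKM in persister and 42.8 FPKM in parental cells. PSME4, the large activator known as PA200, had 9.02 FPKM in persister and 16.4 FPKM in parental cells (-0.79). PSMF1, an inhibitor of the core, was not called at 31.0 FPKM in persister and 34.2 FPKM in parental cells.

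Proteasome partners outside the named families were also mostly lower. Of 16 such factors, 12 were called lower and 2 higher (backgrounds 39% and 30.9%), with a median of -0.37. Tested genes with a mean of at least 10 FPKM had shares of 54.6% and 21.3% and a median of -0.24. On the equal-sum scale 9 of the factors were lower and 5 higher (backgrounds 31.6% and 38.3%), with UBQLN1 and UBE3C among those that turned. The small lid subunit SHFM1, now named SEM1, fell to 143 FPKM in persister cells, against 208 FPKM in parental cells. The ubiquitin receptor ADRM1 fell to 44.9 FPKM in persister cells, against 61.4 FPKM in parental cells. The proteasome deubiquitinase UCHL5, which binds ADRM1, fell furthest, with 9.23 FPKM in persister and 18.1 FPKM in parental cells (-0.90). The shuttle factors UBQLN4 and RAD23B also fell. UBQLN4 had 13.2 FPKM in persister and 22.8 FPKM in parental cells, and RAD23B had 60.1 FPKM in persister and 87.8 FPKM in parental cells. Another shuttle of the same family, UBQLN2, rose to 19.3 FPKM in persister cells, against 16.5 FPKM in parental cells.

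Among regulators of proteasome genes, NFE2L1 rose slightly, with 29.4 FPKM in persister and 25.4 FPKM in parental cells (difference 0.21, q = 0.00378 in the authors' deposited table). Of 9 regulators in the table, 4 were called lower, near the share over all tested genes (39%), 1 higher (background 30.9%) and 4 neither. On the equal-sum scale NGLY1 turned upward, which left 3 lower and 2 higher (backgrounds 31.6% and 38.3%). NFE2L2 was not called at 28.7 FPKM in persister and 26.1 FPKM in parental cells. The small MAF partner MAFF fell, with 1.33 FPKM in persister and 3.35 FPKM in parental cells. VCP, the unfoldase p97 that extracts proteins for degradation, fell to 279 FPKM in persister cells, against 423 FPKM in parental cells (-0.60). NGLY1, which processes the NFE2L1 protein, was called lower at 16.5 FPKM in persister and 20.9 FPKM in parental cells, and SYVN1 fell to 48.9 FPKM in persister cells, against 63.3 FPKM in parental cells.

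Of 10 genes of p97 and its cofactors, 5 were called lower and 4 higher, not far from the shares over all tested genes (39% and 30.9%). Tested genes with a mean of at least 10 FPKM had shares of 54.6% and 21.3%. On the equal-sum scale 3 of the 10 genes were lower and 6 higher, with NSFL1C and FAF2 turning. The shares over all tested genes also moved on that scale, to 31.6% lower and 38.3% higher. UFD1L, part of the complex that recruits ubiquitin chains to p97, fell to 12.2 FPKM in persister cells, against 22.0 FPKM in parental cells. FAF1 had 12.6 FPKM in persister and 18.99 FPKM in parental cells, also a fall. UBXN7, which links p97 to cullin ligases, rose to 7.45 FPKM in persister cells, against 3.96 FPKM in parental cells (0.77).

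All 5 tested genes of ubiquitin supply and activation were called lower as deposited (background 39%, and 54.6% of tested genes with a mean of at least 10 FPKM). But 4 of them, UBB, RPS27A and UBA1 included, were higher on the equal-sum scale, where 38.3% of all tested genes were both called and higher. The ubiquitin gene UBB had 643 FPKM in persister and 791 FPKM in parental cells. UBA6, an activating enzyme, fell on each scale tried, with 10.2 FPKM in persister and 16.1 FPKM in parental cells (-0.60).

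Of 9 genes of interferon-linked peptide supply, 4 were called lower and 2 higher, near the shares over all tested genes (39% and 30.9%). The peptide transporter genes fell. TAP1, the neighbour of PSMB9, had 4.85 FPKM in persister and 7.03 FPKM in parental cells, and TAP2 had 2.24 FPKM in persister and 5.92 FPKM in parental cells. B2M, the light chain of class I histocompatibility molecules, fell to 116 FPKM in persister cells, against 189 FPKM in parental cells. IRF1, an activator of immunoproteasome genes, rose to 1.68 FPKM in persister cells, against 1.11 FPKM in parental cells.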

How the data were processed

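Polyadenylated RNA of BT474 cells was sequenced from 3 persister and 2 parental libraries, prepared without strand information, per the labels' protocols. Per the submitters' processing notes, the build was hg18 and the tools were Cuffdiff 2.0.2, Cufflinks, TopHat2 2.0.6 and CASAVA 1.8. The authors deposited 1 FPKM value per gene and group, and an adjusted q-value for their comparison, per the file headers. Libraries were combined by the authors, and the sources used here do not say how they were scaled.

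Tests on single libraries had been planned and were impossible with 1 value per group. Calls rest on the authors' q-value (under 0.05), and genes with a q-value of 1 count as not tested. On rescaled values the same q-values were kept and only the direction was read anew. Differences are log2(FPKM + 1), persister minus parental, and understate changes of low genes. For symbols on several rows the highest row by mean FPKM was kept. Promoters came from RefSeq (GRCh38.p14), gene order from RefSeq (neighbour medians use tested genes, a choice made after seeing the data), and overlaps, pseudogene names and transcript lengths from GENCODE 29. Of the 49 genes, 12 have named pseudogenes and 19 share exon bases with a gene on the other strand. The calls and the motif search were tested on simulated data. Python 3.11.15, pandas 2.3.3 and matplotlib 3.10.9 were used.

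The members, lists and alternatives were chosen with earlier results of these data known. Every proteasome gene was named, with up to 4 called genes of largest difference per other list and a few fixed ones (SHFM1, ADRM1, NFE2L1, TAP1). Marker genes, neighbours of PSMB3 and PSMD3, and NFE2L2, UBQLN2, IRF1 and the genes that turned on rescaling were named after their values were seen. Some genes of the other lists are not reported here.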

Additional observations from a re-analysis of the deposited data

How the results depend on the processing

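No paired analysis was possible because the table holds no values per library, and leaving out a library, DESeq2, edgeR and limma were not run for the same reason. The count of 42 proteasome genes called lower ranged from 37 to 42 over the pseudocount, scaling, filter, row and q-value alternatives and was 23 with a difference of at least 0.5 required. The count called higher was 1, but 6 on the equal-sum scale, 5 with the sums taken over tested genes only (an alternative chosen after seeing the data, as was the background of at least 10 FPKM) and 0 with a difference of at least 0.5. Rescaling changed the direction of some called genes and not which genes were called, since the authors' q-values were kept. Of all tested genes, 31.6% were called and lower and 38.3% called and higher on the equal-sum scale. With sums over tested genes these shares were 32.6% and 37.2%. With a pseudocount of 0.1 the immunoproteasome median was -0.48 in place of -0.17.

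The 3 scalings moved the class medians. Relative to the all-gene median they were -0.38 for all genes, -0.53 for alpha, -0.57 for beta, -0.058 for immunoproteasome, -0.37 for ATPase, -0.16 for other base and -0.35 for lid subunits, -0.38 for regulatory particle chaperones, -0.48 for core chaperones and -0.32 for activators with the inhibitor. On the equal-sum scale they were -0.15 for all genes, -0.29 for alpha, -0.33 for beta, -0.089 for immunoproteasome, -0.14 for ATPase, 0.076 for other base and -0.12 for lid subunits, -0.15 for regulatory particle chaperones, -0.25 for core chaperones and -0.092 for activators with the inhibitor. With sums over tested genes they were -0.17 for all genes, -0.31 for alpha, -0.36 for beta, -0.10 for immunoproteasome, -0.16 for ATPase, 0.052 for other base and -0.14 for lid subunits, -0.17 for regulatory particle chaperones, -0.27 for core chaperones and -0.12 for activators with the inhibitor.

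Called genes that turned upward on the equal-sum scale were PSMC2 at 0.14, PSMD4 at 0.076, PSMG2 at 0.076, PSME1 at 0.041 and PSMD3 at 0.012. With sums over tested genes PSMC2 stood at 0.11, PSMD4 at 0.052, PSMG2 at 0.052 and PSME1 at 0.017, while PSMD3 stayed lower at -0.012. The scalings by sums multiply every gene of a group by 1 factor. The scaling by the all-gene median subtracts 1 value from every difference on the log2(FPKM + 1) scale. Depth per library is unknown, so the counting error of each value is unknown too.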
